A study of Rattus norvegicus with 7 samples.

Results

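The 10 genes of the intercalated disc described here, chosen by symbol, were followed in newborn rat heart muscle cells after transfection of miRNAs: Gja1, Tjp1, Cdh2, Ctnna1, Vcl, Dsg2, Dsc2, Dsp, Pkp2 and Jup. They are 10 of the 17141 genes in the deposited expression table, and all 10 were found there under a single row each. The unit is RPKM (reads per kilobase of gene and per unit of library size, as scaled by the authors). It is a level per length, so that levels can be set side by side between genes. Differences between libraries are given as log2((RPKM + 1)/(cel-miR-67 RPKM + 1)), called the log2 change here. Adding 1 RPKM to both values makes the change of a low gene look smaller than it is.

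The cells were ventricular cardiomyocytes of wild type Wistar rats at postnatal day 0, taken as the cells that did not attach during a first plating and described by the submitters as mostly cardiomyocytes. Each culture received 1 miRNA at 25 nM with a lipid transfection reagent, and RNA was taken 72 h after transfection. The 7 cultures received cel-miR-67 (a worm miRNA, used by the authors as the reference of their ratios), hsa-miR-199a-3p, hsa-miR-590-3p, hsa-miR-373-3p, hsa-miR-302d-3p, hsa-miR-33b* or hsa-miR-1825. The series title places the study among miRNAs that make cardiomyocytes proliferate. The prefix hsa is left out below, and a value given "with" a miRNA is that of the library transfected with it. The labels do not say how many animals or cultures went into a library. Each miRNA has 1 library, so no difference below has a replicate check, no p-value is given, and every value describes these libraries.

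The intercalated disc joins heart muscle cells end to end. Gap junctions pass current between the cells, adherens junctions tie the actin of neighbouring myofibrils together, and desmosomes tie the desmin filaments together. In newborn ventricle these junctions still lie along much of the cell border and gather at the cell ends as the heart matures.

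The sequences shown are the promoters of the 3 desmosomal genes whose level was above the control with miR-302d-3p and also with miR-373-3p, and that of the gap junction gene Gja1. They were chosen by these values, so the motifs in them are a description. They are the 250 bases before the annotated start site, read 5′ to 3′ on the gene's strand, from RefSeq on build GRCr8. They lie at chr18:12121037-12121286 (+) for Dsg2, chr18:11757467-11757716 (-) for Dsc2, chr17:26877122-26877371 (-) for Dsp and chr20:36302314-36302563 (+) for Gja1. Capitals mark the letters of CAGGTG (an E-box), GGGCGG (a GC box) and TGANTCA (an AP-1 element), each on either strand.
Dsg2: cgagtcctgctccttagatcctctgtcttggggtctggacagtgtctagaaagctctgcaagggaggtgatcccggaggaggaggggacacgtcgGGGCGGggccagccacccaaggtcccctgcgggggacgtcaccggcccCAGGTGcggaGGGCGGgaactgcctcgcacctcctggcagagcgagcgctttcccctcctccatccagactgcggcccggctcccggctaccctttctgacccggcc
Dsc2: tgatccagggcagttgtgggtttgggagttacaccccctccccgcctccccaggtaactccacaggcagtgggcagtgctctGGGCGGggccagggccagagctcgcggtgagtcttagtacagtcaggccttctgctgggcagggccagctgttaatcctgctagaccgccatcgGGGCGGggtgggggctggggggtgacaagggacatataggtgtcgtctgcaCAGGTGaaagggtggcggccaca
Dsp: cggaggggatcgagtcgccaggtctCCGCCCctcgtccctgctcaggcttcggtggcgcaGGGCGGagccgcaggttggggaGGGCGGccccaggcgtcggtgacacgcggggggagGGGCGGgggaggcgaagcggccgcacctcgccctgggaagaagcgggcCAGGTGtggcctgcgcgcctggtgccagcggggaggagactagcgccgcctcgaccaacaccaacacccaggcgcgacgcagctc
Gja1: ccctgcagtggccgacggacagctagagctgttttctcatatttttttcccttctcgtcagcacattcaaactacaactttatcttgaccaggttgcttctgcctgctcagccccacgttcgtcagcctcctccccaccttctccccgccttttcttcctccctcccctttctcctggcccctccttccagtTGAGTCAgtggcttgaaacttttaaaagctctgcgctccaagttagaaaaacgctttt
Each of the 3 desmosomal promoters held 1 CAGGTG, which began at position -107 in Dsg2, -23 in Dsc2 and -85 in Dsp, counted from the start site. GGGCGG stood 2 times in Dsg2, 2 times in Dsc2 and 4 times in Dsp, and no CAGGTG overlapped a GGGCGG. Gja1 held neither and had 1 TGANTCA at position -58. The promoter table held 7 of the 10 genes (Gja1, Dsp, Dsg2, Dsc2, Jup, Tjp1 and Vcl). Of those 7, CAGGTG was in 4 (the 3 above and Jup) and in 15.9% of all 33469 promoters of the same length, and GGGCGG was in 5 (those 4 and Vcl) and in 30.5% of all. The GC content of these 5 promoters was 64.4% (Dsc2) to 75.2% (Dsp). The median over all promoters was 51.2%, and Tjp1 had 30.4%. The shares of all promoters were not matched for GC content. Tjp1, which was also above the control with both of those miRNAs, held none of the motifs searched, and Jup, which held CAGGTG and GGGCGG, was below the control with miR-373-3p. TGANTCA was in 1 of the 7 and 6.34% of all. Vcl alone held CCAAT (34.0% of all) and GGAATG (12.1% of all), and TATAAA (12.9% of all) was in none of the 7. On rat chromosome 18 Dsc2 and Dsg2 lie in the desmosomal cadherin cluster, with 4 protein-coding genes, Dsc1, Dsg1, Dsg4 and Dsg3, between them. These matches describe letters in a window and were not tied to any measured binding.

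Of the transfected miRNAs, the miRNA table held the rat form of miR-199a-3p, encoded at chr13:77116294-77116315 (+, GRCr8). Its seed, bases 2 to 8, which is the part that pairs with targets, is in capitals.
rno-miR-199a-3p: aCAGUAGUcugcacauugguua
No member was past 1.5-fold in either direction in the library of this miRNA.

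All 10 genes were measured in all 7 libraries, with 502 to 36531 reads per gene and library. The 95% counting interval of a ratio to the control was widest for Dsc2 and narrow for Ctnna1 and Vcl, and 5 of the 60 intervals held a ratio of 1. Library sizes implied by the RPKM values ran from 22446204 to 34708142 reads. The listed reads were 85.5% to 109.5% of these sizes, so the sizes are not sums of the listed reads. Transcripts of the mitochondrial genome took 27.7% (miR-199a-3p) to 41.4% (miR-590-3p) of the listed reads, against 41.0% in the control. The 9 cardiomyocyte markers (Tnnt2, Actc1, Myh6 and others) were all at 41.3 RPKM or more in each library, so the defining markers of the labelled cell type were present. Their summed level was 20898 RPKM in the control and lower in all 6 miRNA libraries, from 16086 (miR-199a-3p) to 20042 (miR-33b*). Scaling to the reads of the listed genes raised the median of all genes by 0.30 with miR-199a-3p and 0.21 with miR-302d-3p. It raised that median by 0.17 with miR-373-3p, 0.10 with miR-33b* and 0.11 with miR-1825. The marker sums were not rescaled that way. The cardiomyocyte sum had a log2 ratio to the control of -0.10 with miR-302d-3p, -0.12 with miR-373-3p and -0.06 with miR-33b*. Its direction in these libraries therefore depends on the scaling. With miR-1825 it was -0.13, close in size to the shift of 0.11. The 6 smooth muscle and pericyte markers summed to 757 RPKM in the control and were higher in all 6, from 768 (miR-302d-3p) to 1172 (miR-199a-3p). Within that list Cnn1 was above the control in all 6 but Myh11 below it in 5, and the median log2 change of the list was -0.17 with miR-302d-3p and -0.05 with miR-373-3p. The 8 fibroblast markers summed to 731 RPKM in the control and to between 518 (miR-1825) and 741 (miR-199a-3p) RPKM. The 6 matched endothelial markers summed to at most 10.0 RPKM and the 6 macrophage and leukocyte markers to at most 12.4 RPKM in any library. In such bulk samples, fewer cells of a type and less RNA per cell cannot be told apart. The part of these marker differences in the results below was not tested.

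In the control, the catenin Ctnna1 was the highest of the 10 at 279 RPKM, followed by Vcl at 163 RPKM and Cdh2 at 101 RPKM. Gja1 (71.7), Pkp2 (63.8), Dsp (51.9) and Jup (20.2) came next, then Tjp1 and Dsg2 at 12.0 RPKM each, and Dsc2 was lowest at 4.20 RPKM. Tjp1 and Dsg2 were the only neighbours in this order that did not differ beyond counting error. Ctnna1 and Vcl were highest and Dsc2 lowest in all 7 libraries. Cdh2 held the third place in 6 libraries, but with miR-1825 it stood below Pkp2 and Gja1. With miR-199a-3p the order was that of the control, and with miR-33b* Gja1, Pkp2 and Dsp kept their order. Dsp stood above Pkp2 with miR-373-3p and above both Gja1 and Pkp2 with miR-302d-3p, although its lead over Gja1 there was within counting error.

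**Figure D1:**
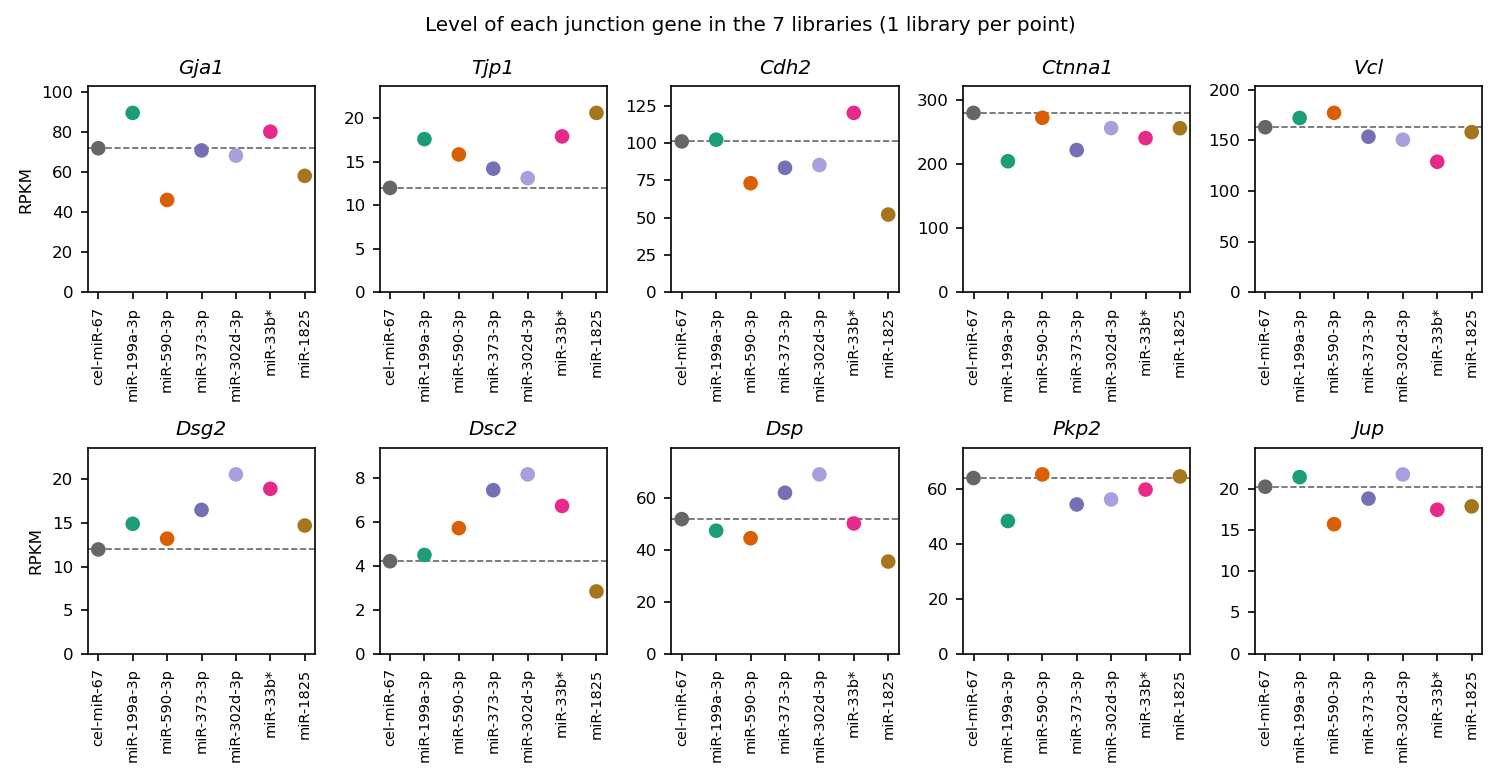
RPKM of each of the 10 junction genes (vertical axis, from 0) in the 7 libraries (horizontal axis); each point is 1 library and the dashed line is the cel-miR-67 level. All 6 miRNA points of Tjp1 and Dsg2 lie above the line and all 6 of Ctnna1 below it, and Cdh2 and Dsc2 are lowest with miR-1825.

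Across all 60 values, 7 lay past 1.5-fold, and the shares lay near those of genes at large. At the 1.5-fold limit, 5 of 60 values were higher (5.09% of the values of all 12330 genes whose mean was at least 1 RPKM) and 2 of 60 were lower (5.79% of all). No member reached 2-fold (1.39% of all values higher and 1.52% lower). The 7 values were Gja1 with miR-590-3p and Cdh2 with miR-1825, both lower, and Dsc2 with miR-373-3p, Dsg2 and Dsc2 with miR-302d-3p, Dsg2 with miR-33b* and Tjp1 with miR-1825, all higher.

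Per library, no member passed the limit with miR-199a-3p, where 4.81% of all genes were higher and 5.55% lower. With miR-590-3p 1 of 10 was lower (3.49% of all genes) and none higher (4.7%). With miR-373-3p 1 was higher (4.83%) and none lower (6.56%), and with miR-302d-3p 2 were higher (5.11%) and none lower (7.32%). With miR-33b* 1 was higher (5.17%) and none lower (5.52%), and with miR-1825 1 was higher (5.94%) and 1 lower (6.33%). With 10 members a count of 0 or 1 lies near these shares.

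The median log2 change of the 10 genes was 0.08 with miR-199a-3p, -0.0053 with miR-590-3p, -0.05 with miR-373-3p, 0.01 with miR-302d-3p, 0.05 with miR-33b* and -0.15 with miR-1825. The median of all 12330 genes lay between -0.0034 and 0.02 in the same libraries. The medians of the junction genes thus lay close to 0, on both sides of it. They were higher when libraries were scaled to the reads of the listed genes. That setting raised the median of all genes by 0.30 with miR-199a-3p, 0.21 with miR-302d-3p and 0.17 with miR-373-3p. It turned the direction of 13 of the 60 member values, and scaling to the reads of non-mitochondrial genes turned 0 of the 60. The median absolute log2 change of the 10 genes was 0.28 with miR-590-3p (0.17 over all genes) and 0.29 with miR-1825 (0.20 over all genes). In the other 4 libraries it was 0.16 to 0.24 (0.19 to 0.21 over all genes). All 6 comparisons share the cel-miR-67 library.

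**Figure D2:**
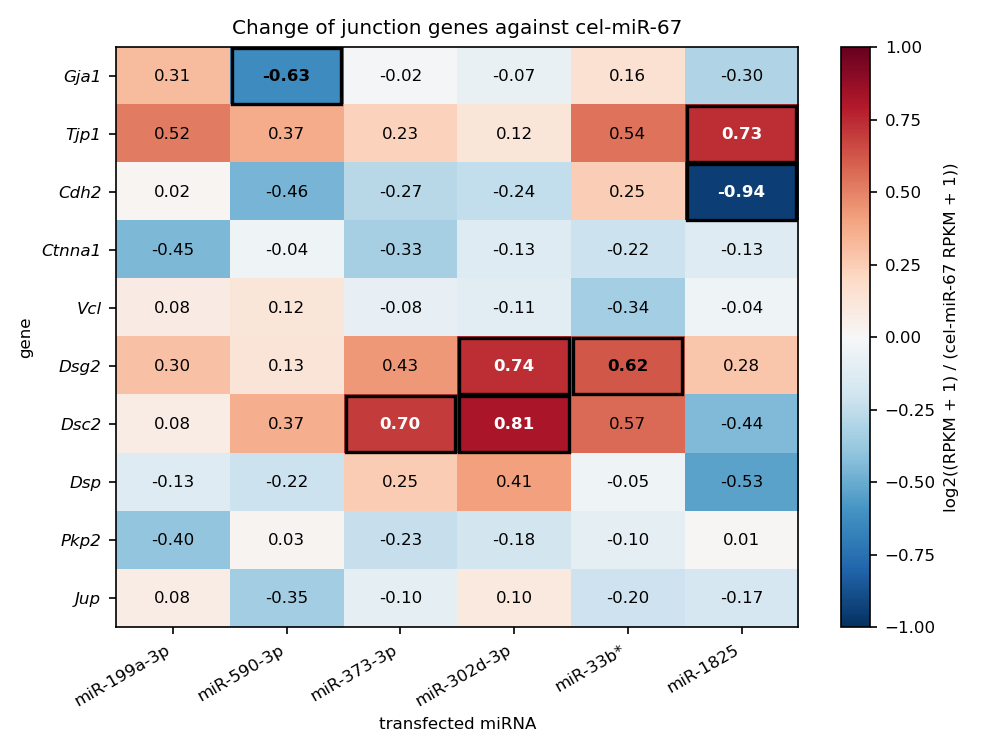
Log2 change against cel-miR-67 for the 10 junction genes (vertical axis) in the 6 miRNA libraries (horizontal axis), coloured from blue (lower) to red (higher). Outlined cells are the 7 values past 1.5-fold, from -0.94 (Cdh2 with miR-1825) to 0.81 (Dsc2 with miR-302d-3p).

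Gja1 (ENSRNOG00000000805) encodes Cx43, the main gap junction channel protein of ventricular muscle. It stood at 71.7 RPKM in the control and at 89.3 with miR-199a-3p, 46.0 with miR-590-3p, 70.6 with miR-373-3p, 68.1 with miR-302d-3p, 80.0 with miR-33b* and 58.0 RPKM with miR-1825. The miR-590-3p library was the lowest and the miR-199a-3p library the highest, 1.94-fold apart. The log2 change with miR-590-3p was -0.63, and the rate ratio, the reads divided by library size over the same in the control, was 0.641 with a 95% counting interval of 0.614 to 0.669. Of all genes, 2.90% were below that change in the same library. There the median log2 change was -0.43 over the 9 cardiomyocyte markers, with all 9 below 0. It was -0.38 over the 8 fibroblast markers, with 7 below 0, and 0.16 over the 6 smooth muscle and pericyte markers. The part of these in the Gja1 value was not tested. The log2 change of Gja1 was -0.30 with miR-1825, 0.31 with miR-199a-3p and 0.16 with miR-33b*. With miR-373-3p the log2 change was -0.02, with an interval of the ratio (0.949 to 1.02) that held 1, and with miR-302d-3p it was -0.07. With scaling to the listed reads these last values were both 0.17.

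Tjp1 (ENSRNOG00000011077) encodes ZO-1, the scaffold that binds the tail of Cx43 at the edge of gap junction plaques. It was lowest in the control, at 12.0 RPKM, and stood at 17.6 with miR-199a-3p, 15.8 with miR-590-3p, 14.2 with miR-373-3p, 13.1 with miR-302d-3p, 17.9 with miR-33b* and 20.6 RPKM with miR-1825. All 6 miRNA libraries were above the control under each scaling, and the 6 comparisons share that 1 control library. The log2 change was 0.73 with miR-1825 (ratio interval 1.63 to 1.81), the only one past 1.5-fold, then 0.54 with miR-33b*, 0.52 with miR-199a-3p, 0.37 with miR-590-3p, 0.23 with miR-373-3p and 0.12 with miR-302d-3p. When the other 5 miRNA libraries were averaged to take the place of the control, the miR-1825 change was 0.37 and under the limit, and 3 of 6 changes were above 0 and 3 below.

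Gja1 and Tjp1 can be set against each other within a library, which leaves library scaling out. The ratio of Gja1 to Tjp1 RPKM was 5.98 in the control, 4.47 to 5.19 in 4 of the miRNA libraries, and 2.90 with miR-590-3p and 2.81 with miR-1825. The first of these had the lowest Gja1 of the 7 libraries and the second the highest Tjp1.

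Cdh2 (ENSRNOG00000015602) encodes N-cadherin, the adhesion molecule of the adherens junctions of heart muscle. Its level was 101 RPKM in the control, 102 with miR-199a-3p, 73.1 with miR-590-3p, 83.4 with miR-373-3p, 85.3 with miR-302d-3p, 120.2 with miR-33b* and 52.1 RPKM with miR-1825. The miR-1825 library was below all others, and the lowest and highest libraries were 2.31-fold apart. The log2 change with miR-1825 was -0.94, the largest of the 60 member values in size, with a ratio of 0.515 (0.499 to 0.532). Of all genes, 1.94% were below that change. The next lowest was miR-590-3p at -0.46, followed by -0.27 with miR-373-3p and -0.24 with miR-302d-3p, the last of which turned to just above 0 with scaling to the listed reads. The log2 change was 0.25 with miR-33b*, and with miR-199a-3p the ratio interval held 1 (log2 change 0.02). In the miR-1825 library, under the reported scaling, the cardiomyocyte marker sum had a log2 ratio to the control of -0.13. The median log2 change of the 9 markers was -0.31, with all 9 below 0. The fibroblast sum had a log2 ratio of -0.50 and the smooth muscle and pericyte sum 0.48 in the same library, and the part of these in the Cdh2 value was not tested.

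Ctnna1 (ENSRNOG00000005796) encodes alpha-catenin, which couples the cadherin complex to actin. It was highest in the control, at 279 RPKM, and stood at 204 with miR-199a-3p, 272 with miR-590-3p, 221 with miR-373-3p, 255 with miR-302d-3p, 240 with miR-33b* and 255 RPKM with miR-1825. The log2 change was below 0 in all 6, from -0.45 (miR-199a-3p) to -0.04 (miR-590-3p), and none passed 1.5-fold. When libraries were scaled to the reads of the listed genes instead, 4 of 6 were below the control, and the direction turned with miR-302d-3p and miR-1825. With the other 5 miRNA libraries as the reference, 3 of 6 were above and 3 below. Cdh2 per Ctnna1 within the same library was 0.362 in the control, 0.502 with miR-199a-3p, 0.269 with miR-590-3p, 0.377 with miR-373-3p, 0.334 with miR-302d-3p, 0.501 with miR-33b* and 0.204 with miR-1825. The ratio of N-cadherin to alpha-catenin transcripts was thus lowest with miR-1825 and highest, by nearly the same value, with miR-199a-3p and miR-33b*.

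Vcl (ENSRNOG00000010765) encodes vinculin, which binds alpha-catenin under tension and strengthens the link to actin. It stood at 163 RPKM in the control, 172 with miR-199a-3p, 177 with miR-590-3p, 154 with miR-373-3p, 151 with miR-302d-3p, 129 with miR-33b* and 158 RPKM with miR-1825. The miR-33b* library was the lowest, with a log2 change of -0.34. The other 5 changes lay between -0.11 and 0.12, and the direction with miR-1825, miR-302d-3p and miR-373-3p turned when libraries were scaled to the listed reads.

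Dsg2 (ENSRNOG00000016526) encodes desmoglein-2, which with desmocollin-2 forms the adhesive part of the cardiac desmosome. It stood at 12.0 RPKM in the control, 14.9 with miR-199a-3p, 13.2 with miR-590-3p, 16.5 with miR-373-3p, 20.6 with miR-302d-3p, 18.9 with miR-33b* and 14.7 RPKM with miR-1825. The control was the lowest library, and all 6 log2 changes were above 0 under each scaling. They were 0.74 with miR-302d-3p (ratio interval 1.62 to 1.83) and 0.62 with miR-33b* (1.48 to 1.69), both past 1.5-fold, and 0.43 with miR-373-3p, 0.30 with miR-199a-3p, 0.28 with miR-1825 and 0.13 with miR-590-3p. With the other 5 miRNA libraries as the reference, 3 of 6 were above and 3 below.

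Dsc2 (ENSRNOG00000039969) encodes desmocollin-2, the partner of desmoglein-2. It stood at 4.20 RPKM in the control, 4.49 with miR-199a-3p, 5.71 with miR-590-3p, 7.43 with miR-373-3p, 8.15 with miR-302d-3p, 6.72 with miR-33b* and 2.83 RPKM with miR-1825. It had the widest span of the 10, 2.88-fold between the miR-302d-3p and miR-1825 libraries. The log2 change was 0.81 with miR-302d-3p and 0.70 with miR-373-3p, both past 1.5-fold. It was 0.57 with miR-33b*, just under the limit of 0.58, and 0.37 with miR-590-3p. The ratio interval with miR-199a-3p held 1 (0.961 to 1.19). With miR-1825 the log2 change was -0.44, with a ratio of 0.673 (0.598 to 0.758). With a level this low the added 1 RPKM matters: the rate ratio was 1.94 with miR-302d-3p (1.77 to 2.13), 1.77 with miR-373-3p (1.61 to 1.94) and 1.598 with miR-33b* (1.44 to 1.77). With a pseudocount of 0.1 RPKM the miR-33b* log2 change was 0.66, past the limit.

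The makeup of the member cadherins Cdh2, Dsg2 and Dsc2 can be given as a share within each library. Other cadherins are left out of it. Of these, Cdh11 (31.1 RPKM) and Cdh13 (14.4 RPKM) were above Dsg2 in the control, and Cdh3 stood at 21.6 RPKM with miR-302d-3p. Dsg2 and Dsc2 together made up 13.8% of the summed RPKM of Cdh2, Dsg2 and Dsc2 in the control. The share was 15.9% with miR-199a-3p, 17.6% with miR-33b*, 20.6% with miR-590-3p, 22.3% with miR-373-3p and 25.2% with both miR-302d-3p and miR-1825. All 6 miRNA libraries had a higher desmosomal share of the member cadherins than the control, and the 6 comparisons share that 1 control library. With miR-302d-3p Dsg2 and Dsc2 were higher (0.74 and 0.81) and Cdh2 lower (-0.24), and with miR-1825 Dsg2 was higher (0.28) and Dsc2 (-0.44) and Cdh2 (-0.94) lower. The ratio of Dsg2 to Cdh2 was 0.118 in the control and highest with miR-1825, at 0.283 (0.269 to 0.297), then 0.241 with miR-302d-3p. The ratio of Dsc2 to Cdh2 was 0.042 in the control and highest with miR-302d-3p (0.096) and miR-373-3p (0.089). The 2 desmosomal cadherins parted with miR-1825, where Dsc2 per Dsg2 was 0.192 (0.174 to 0.212) against 0.351 (0.320 to 0.386) in the control and 0.301 to 0.451 in the other 5 libraries.

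**Figure D3:**
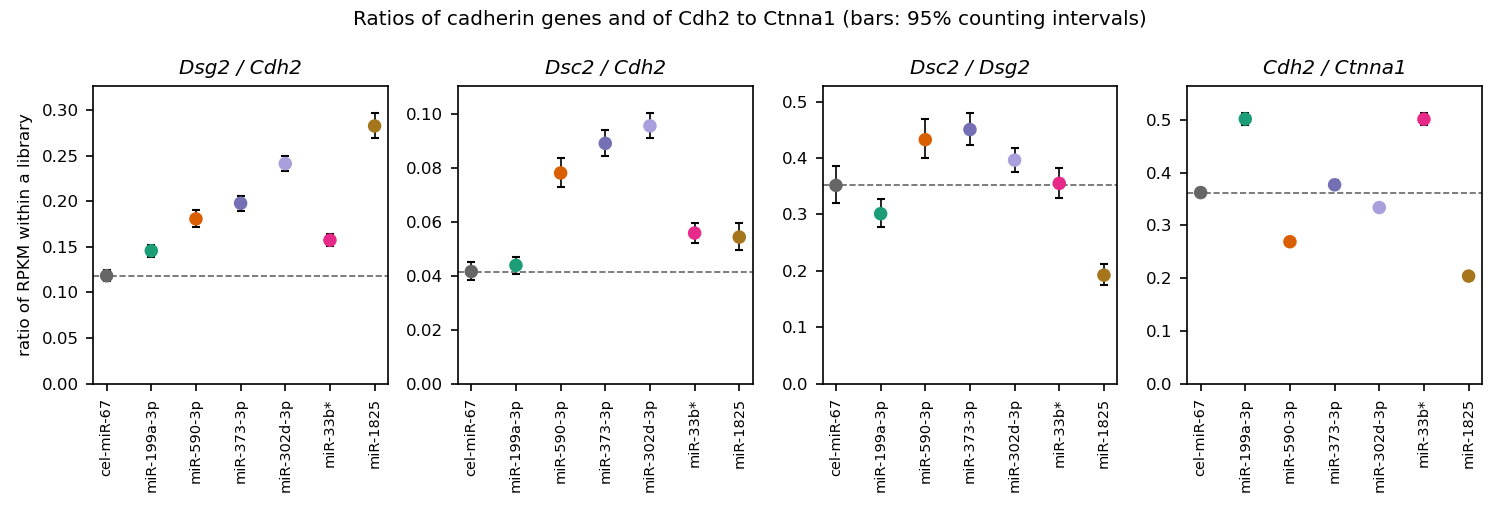
Ratio of RPKM of 2 junction genes within each library (vertical axes, from 0) for the 7 libraries (horizontal axis); points are single libraries, bars are 95% counting intervals and the dashed line is the cel-miR-67 ratio. Dsg2 per Cdh2 is above the line in all 6 miRNA libraries, and Dsc2 per Dsg2 and Cdh2 per Ctnna1 are lowest with miR-1825, at 0.192 and 0.204.

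Dsp (ENSRNOG00000013928) encodes desmoplakin, which links the desmosome to desmin. It stood at 51.9 RPKM in the control, 47.4 with miR-199a-3p, 44.5 with miR-590-3p, 62.0 with miR-373-3p, 69.1 with miR-302d-3p, 50.2 with miR-33b* and 35.5 RPKM with miR-1825. The miR-302d-3p library was the highest and the miR-1825 library the lowest, as for Dsc2. The log2 change was 0.41 with miR-302d-3p, 0.25 with miR-373-3p and -0.53 with miR-1825, and none of the 6 passed 1.5-fold. With miR-199a-3p (-0.13) and miR-33b* (-0.05) the direction turned with scaling to the listed reads.

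Pkp2 (ENSRNOG00000001825) encodes plakophilin-2, the desmosomal plaque protein that also helps to hold Cx43 at the disc. It stood at 63.8 RPKM in the control, 48.2 with miR-199a-3p, 65.2 with miR-590-3p, 54.2 with miR-373-3p, 56.1 with miR-302d-3p, 59.6 with miR-33b* and 64.4 RPKM with miR-1825. The miR-199a-3p library was the lowest (log2 change -0.40), and the intervals with miR-590-3p and miR-1825 held 1. Its direction with miR-302d-3p (-0.18) and miR-33b* (-0.10) turned with scaling to the listed reads. Pkp2 had the narrowest span of the 10 genes, 1.35-fold. Dsp per Pkp2 ran from 0.551 with miR-1825 and 0.683 with miR-590-3p, through 0.812 in the control, to 1.14 with miR-373-3p and 1.23 with miR-302d-3p.

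Jup (ENSRNOG00000015380) encodes plakoglobin, the catenin shared by desmosomes and adherens junctions. It stood at 20.2 RPKM in the control, 21.4 with miR-199a-3p, 15.7 with miR-590-3p, 18.8 with miR-373-3p, 21.7 with miR-302d-3p, 17.4 with miR-33b* and 17.8 RPKM with miR-1825. The miR-590-3p library was the lowest, with a log2 change of -0.35. The other 5 changes lay between -0.20 and 0.10, and that with miR-373-3p turned with scaling to the listed reads.

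The miR-302d-3p and miR-373-3p libraries were the closest to each other in these 10 genes. The median absolute log2 difference between them was 0.11 and the largest was 0.30, for Dsg2, which was lower with miR-373-3p. Over the other 14 pairs of miRNA libraries the median absolute difference was 0.18 to 0.37. The largest single difference between any pair was 1.26, for Dsc2 between the miR-302d-3p and miR-1825 libraries, a rate ratio of 2.88 (2.61 to 3.18). These differences are between miRNA libraries directly and do not use the control.

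Among the members, Pkp2 and Ctnna1 had the most alike set of 6 log2 changes (Euclidean distance 0.236) and Cdh2 and Tjp1 the least alike (2.06). The distance between Dsg2 and Dsc2 was 0.836, with the same sign in 5 of 6 libraries. For the 3 members with the widest span of log2 levels, the nearest of 7435 protein-coding genes whose mean was at least 5 RPKM were sought over the 6 changes. For Dsc2 these were Cand2 (distance 0.217), Suox (0.361) and Gprasp1 (0.428). For Cdh2 they were Fam78a (0.192), Lrrc17 (0.269) and Ece1 (0.367), and for Gja1 they were Mtss1 (0.312), Nrp1 (0.319) and Glb1 (0.348). All of these changes share the control library, so the distances are a description.

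The 6 lists of related genes, which leave out the 10 members, give the surroundings of these values. Of 22 other adherens junction genes, 21 were matched and 17 had a mean of 1 RPKM or more. The counts past 1.5-fold below are to be read against the library shares of all genes given above. None of the 17 passed it with miR-199a-3p. With miR-590-3p 0 were higher and 2 lower, with miR-373-3p 2 and 1, with miR-302d-3p 3 and 2, with miR-33b* 1 and 3, and with miR-1825 0 and 3. The classical cadherin Cdh3 (P-cadherin) had log2 changes of 1.51 with miR-373-3p and 1.74 with miR-302d-3p, against -0.31 to 0.56 in the other 4 libraries. Cdh13 (T-cadherin, which has no cytoplasmic tail) had -2.07 with miR-302d-3p, -1.69 with miR-373-3p and -1.49 with miR-33b*. Cdh11 was below the control in all 6 (-0.68 to -0.35). The catenin of the p120 family Arvcf had -1.46 with miR-1825, the library in which Cdh2 was lowest. The adhesion receptor Nectin2 had 1.01 with miR-302d-3p, 0.93 with miR-33b* and 0.88 with miR-373-3p. Ctnnd1 (p120-catenin) had 0.63 with miR-302d-3p and Lima1 had -0.71 with miR-33b*. The median of the 17 genes lay between -0.08 and 0.08 in all 6 libraries, and between 0.04 and 0.31 with scaling to the listed reads.

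Of 14 other desmosome genes and filament partners, 10 were matched and 6 reached a mean of 1 RPKM. With miR-199a-3p 1 was higher and 2 lower, in the miR-590-3p, miR-302d-3p and miR-373-3p libraries 1 was higher each and none lower, and none passed with miR-33b* or miR-1825. The keratin Krt18 was the higher one each time (0.87 with miR-199a-3p, 0.63 with miR-590-3p, 1.00 with miR-373-3p and 1.24 with miR-302d-3p). The desmosomal membrane protein Perp had -1.40 and Des (desmin) -0.72 with miR-199a-3p. Des, at 641 RPKM in the control, had 0.43 with miR-1825. Of the isoforms that replace Dsg2 and Dsc2 in skin, Dsc1 and Dsc3 had means of 0.035 and 0.043 RPKM.

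Of 22 other connexins and pannexins, 10 were matched and 4 reached a mean of 1 RPKM. Of these 4, 1 was higher with miR-199a-3p and 1 lower with miR-1825, and none passed the limit in the other 4 libraries. Gja5 (Cx40, the connexin of atrium and conduction fibres) stood at 8.12 RPKM in the control, and its log2 change was -0.77 with miR-1825 and 0.52 with miR-199a-3p. The higher one with miR-199a-3p was Gja3 (0.74), at 3.16 RPKM in the control. Gjc1 (Cx45) stood at 8.58 RPKM and had log2 changes of -0.27 to 0.40. Gja1 was therefore the highest connexin measured in each library, by RPKM.

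Of 25 other scaffold and channel genes of the disc, 24 were matched and all 24 reached a mean of 1 RPKM. At the 1.5-fold limit 1 was higher and 4 lower with miR-199a-3p, 0 and 3 with miR-590-3p, 1 and 6 with miR-373-3p, 0 and 8 with miR-302d-3p, 0 and 6 with miR-33b*, and 0 and 1 with miR-1825. The list median was below 0 in all 6 libraries, from -0.33 (miR-302d-3p) to -0.06 (miR-199a-3p), against medians of the 10 members of -0.15 to 0.08. With scaling to the listed reads the miR-199a-3p median of this list was 0.25 and the other 5 stayed below 0. In that setting 3 genes were lower and 2 higher with miR-302d-3p. Scaling to non-mitochondrial reads left 8 lower and 0 higher there. Under the reported scaling the cardiomyocyte marker sum had log2 ratios of -0.10 with miR-302d-3p and -0.12 with miR-373-3p. Single markers moved further, with 6 of the 9 below the control and 3 above it in each of these libraries. In the same order Ryr2 had -0.97 and -1.07, Myh6 -0.68 and -0.73, and Tnni3 0.42 and 0.26. The part of these marker differences in the counts was not tested. Xirp2 (an actin-binding repeat protein of the disc) had -2.78 with miR-302d-3p, -2.56 with miR-373-3p, -1.48 with miR-199a-3p and -1.35 with miR-33b*. Scn4b (-0.66) was the 1 lower gene with miR-1825 and had the same value with miR-590-3p. The potassium channel gene Kcnj2 (0.62) was the higher gene with miR-199a-3p and Lgals3 (0.66) with miR-373-3p. Nrap, which anchors actin to the disc, had -1.13 with miR-373-3p and -1.09 with miR-302d-3p. The muscle LIM protein gene Csrp3 was below the control in all 6 (-1.21 to -0.42). Ank3 (ankyrin-G) and Cask had the highest mean changes, from -0.01 to 0.50 and from -0.18 to 0.41.

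Of 25 partners of vinculin at cell adhesions, all 25 were measured. With miR-199a-3p 1 was higher and 1 lower, none passed with miR-590-3p or miR-1825, and none was higher while 5 were lower with miR-302d-3p, 6 with miR-33b* and 6 with miR-373-3p. The integrin Itga7 had -2.82 with miR-302d-3p and -2.18 with miR-373-3p, Enah -1.54 and -1.41, and Tns1 -1.27 and -1.13, while Vcl itself had -0.11 and -0.08. With miR-302d-3p the other lower genes were Itgb1 (-0.83) and Actn1 (-0.63). Itga6 had -1.12 with miR-199a-3p, where Lims1 (0.61) was the higher gene, and -0.11 to 0.31 in the other 5 libraries. With scaling to the listed reads 3 were lower in each of the miR-302d-3p, miR-33b* and miR-373-3p libraries. With scaling to non-mitochondrial reads 5, 4 and 6 were lower, in the same order. Among genes whose mean was at least 5 RPKM, Vasp and Actn4 had the highest mean changes, at most 0.30 and 0.34. Of 20 genes for the traffic and turnover of Cx43, all measured, 1 was higher and 1 lower with miR-199a-3p, 1 and 2 with miR-302d-3p, and at most 2 were lower and none higher in each of the other 4. None of those 20 passed the limit with miR-590-3p, where 4.7% of all genes were higher and 3.49% lower. Src, a kinase that phosphorylates Cx43, had log2 changes of 0.09 to 0.52, and Ezr (ezrin) had 0.64 with miR-199a-3p. The anchoring protein gene Akap6 had -0.89 with miR-302d-3p and -0.76 with miR-373-3p, and Akt1 -0.73 and -0.60. Prkce, a kinase, was the higher gene with miR-302d-3p (0.70). Cav1 (caveolin) had -0.71 with miR-33b* and -0.63 with miR-1825, and Mapre1 (EB1, a microtubule end protein that Cx43 carriers follow) had -0.59 with miR-199a-3p and -0.77 with miR-1825.

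**Figure D4:**
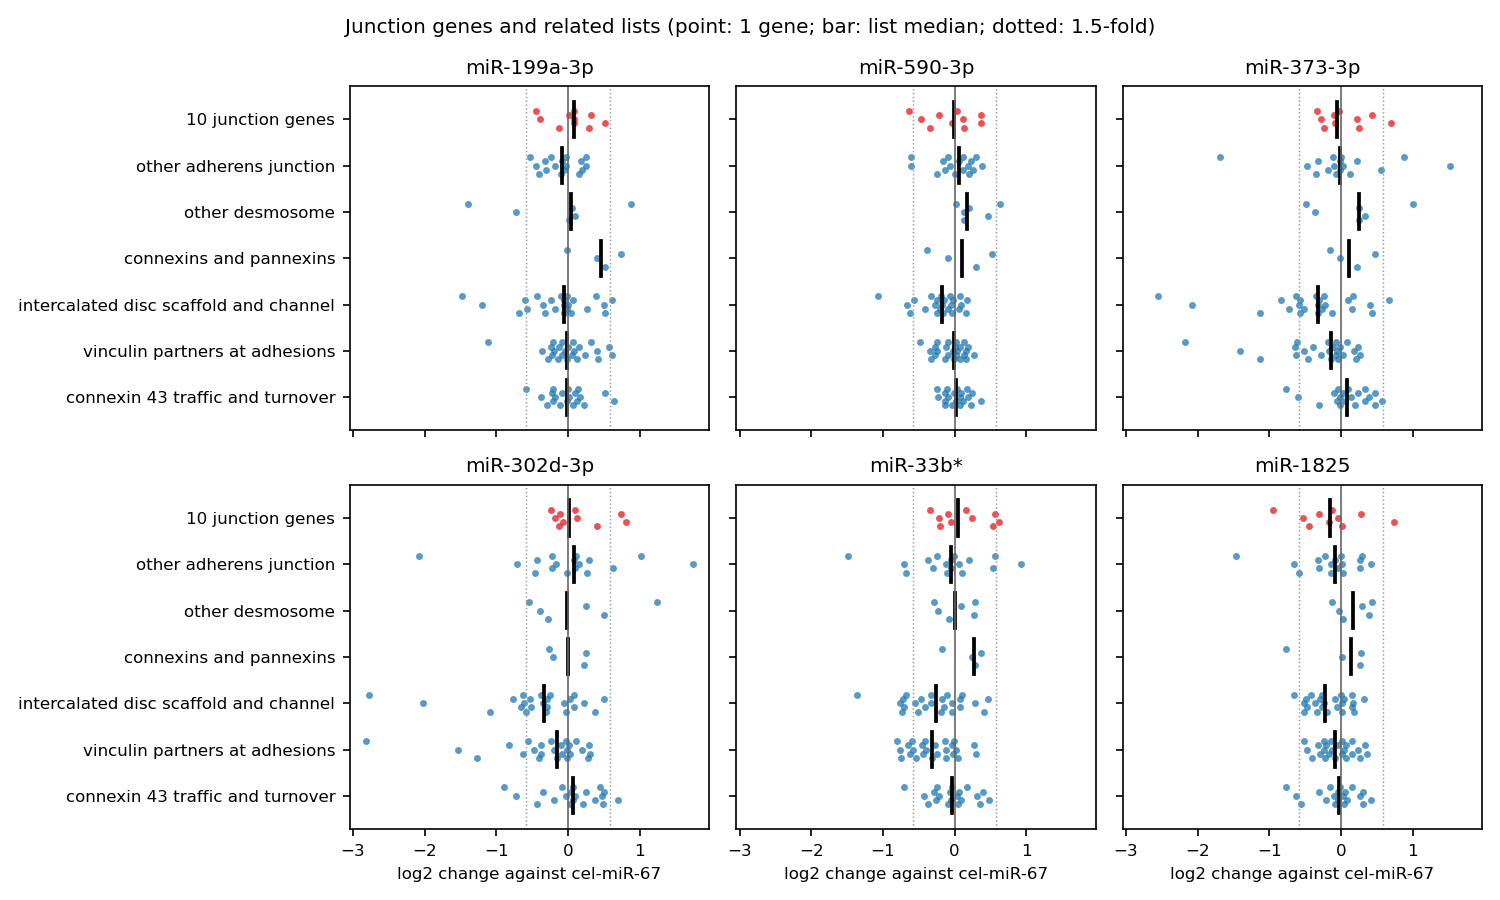
Log2 change against cel-miR-67 (horizontal axis) of the 10 junction genes (red) and of 6 related lists (blue) in each miRNA library, for genes whose mean was at least 1 RPKM; each point is 1 gene, black bars are list medians and dotted lines are 1.5-fold. The 10 junction genes stay within 2-fold in every panel, while single genes of the scaffold and vinculin lists reach -2.78 and -2.82 with miR-302d-3p.

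How far the 7 values past 1.5-fold depended on settings differed between genes. Gja1 with miR-590-3p (-0.66 to -0.59) and Cdh2 with miR-1825 (-0.96 to -0.81) stayed past the limit in 6 of 6 alternatives. Dsg2 with miR-302d-3p (0.37 to 0.97) and Tjp1 with miR-1825 (0.37 to 0.86) stayed past it in 5 of 6. Dsg2 with miR-33b* (0.23 to 0.73), Dsc2 with miR-373-3p (0.36 to 0.86) and Dsc2 with miR-302d-3p (0.51 to 1.03) stayed past it in 4 of 6. All 5 higher values fell under the limit when the other 5 miRNA libraries were the reference in place of cel-miR-67.

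**Figure D5:**
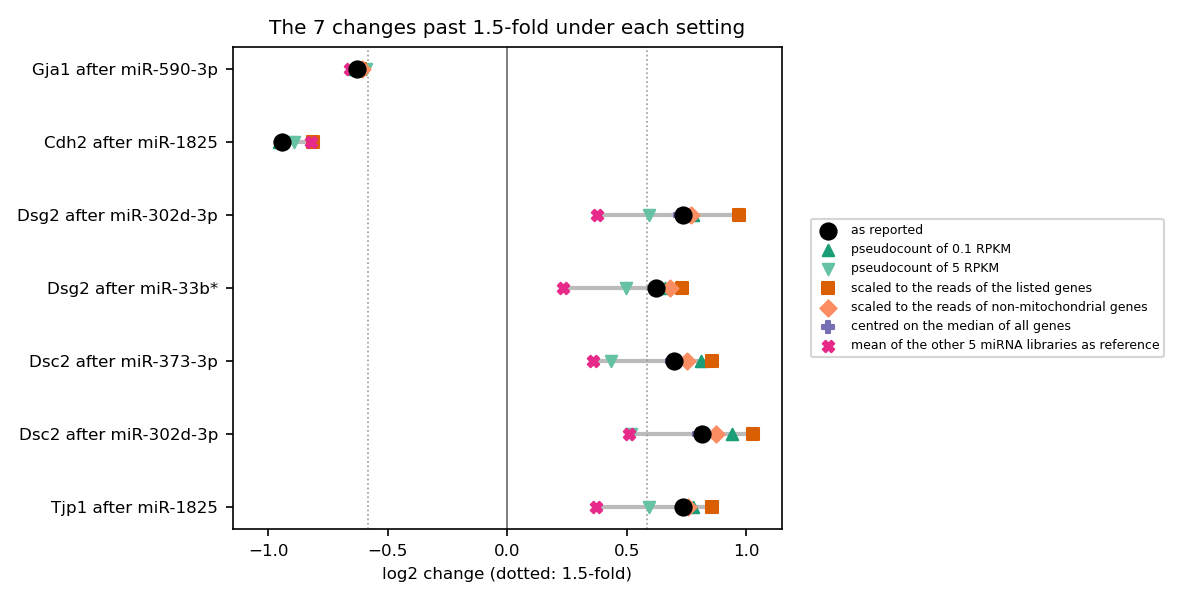
Log2 change (horizontal axis) of the 7 values past 1.5-fold under the reported setting (black circles) and 6 alternatives (other symbols), with dotted lines at 1.5-fold and a grey bar over the range. The 2 lower values keep to the left of the limit, and the 5 higher values move under it with the other 5 miRNA libraries as reference, to between 0.23 and 0.51.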

How the data were processed

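The authors deposited RPKM values per gene (Ensembl gene IDs with symbols) for 7 RNA-seq libraries made from total RNA with an mRNA kit, in 1 table of the series and 7 single files that held the same values. The submitters' processing notes name STAR 2.7, edgeR and Rnor_6.0, with no role or order. For the annotation, counter, strand setting and filters, nothing is stated in these sources. The 10 members and all lists were chosen with earlier results of these data known. Column and sample names were matched by the miRNA in the title.

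Library sizes, gene lengths and whole reads per gene and library were inferred together from the deposited RPKM alone. This rests on RPKM steps being whole multiples of 1 read. The step was tested on simulated data. Each gene's length was the first found to give whole reads within 0.05 reads. This was met for 100% of genes by that choice, so wholeness is no check of the reads. These reads served only for depth, library scaling and exact Clopper-Pearson 95% intervals of rate ratios (reads divided by library size), which cover counting error only. The sums of listed reads were 85.5% to 109.5% of the library sizes that the RPKM values imply, so the authors' scaling was not to the listed reads.

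Changes are log2((RPKM + 1)/(cel-miR-67 RPKM + 1)). A gene was counted as higher or lower past 1.5-fold, and the background is the 12330 genes whose mean reached 1 RPKM. With 1 library per group there is no test and no p-value. Alternatives were pseudocounts of 0.1 and 5 RPKM, 2 other library scalings, another reference, limits of 2-fold and 1.25-fold, no filter on low values, and protein-coding genes whose mean reached 5 RPKM. Centring on the median of all genes was added after seeing the data. Of the lists, the text names by rule those with the 2 largest or 2 smallest mean changes among genes whose mean reached 5 RPKM, and any at least 2-fold apart in any library. The genes named as nearest to a member are the 3 at the smallest distance. List genes outside this rule (such as Dsc1, Gja3, Ctnnd1, Akt1 and Itgb1) were named after their values were seen. Some list genes are not reported here. Ctnna3 and Cask stand under 2 IDs each, of which the higher was used. Python 3.11.15, numpy 2.4.6, pandas 2.3.3 and scipy 1.17.1 were used.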

Additional observations from a re-analysis of the deposited data

How the results depend on the processing

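With libraries scaled to the reads of the listed genes, the median change of the 10 junction genes was 0.39 with miR-199a-3p, 0.14 with miR-373-3p, 0.25 with miR-302d-3p, 0.17 with miR-33b* and -0.021 with miR-1825. That scaling moved the median of all genes by 0.30, 0.17, 0.21, 0.10 and 0.11 in the same libraries and turned 13 of 60 member directions. Scaled to non-mitochondrial reads the miR-199a-3p median was 0.14, and 0 of 60 member directions turned. With the mean of the other 5 miRNA libraries as reference the median was -0.018 with miR-199a-3p and -0.16 with miR-590-3p, and 14 directions turned.

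The number of values past 1.5-fold higher, 5 as reported, was 2 with a pseudocount of 5 RPKM, 12 with scaling to the listed reads, 8 with scaling to non-mitochondrial reads, 1 with the other 5 miRNA libraries as reference (Cdh2 with miR-33b*, 0.60, which is none of the 5), 0 at the higher and 12 at the lower of the other limits. The number lower, 2 as reported, was 4 with the other reference, 0 and 10 at those limits. Apart from the different limits themselves, the cause was not tested. A pseudocount of 0.1 RPKM and centring on the median of all genes, the latter added after seeing the data, left these medians and counts within their margins, and none of the 7 values past 1.5-fold changed direction under any alternative. No paired analysis was possible because each miRNA has 1 library, and for the same reason no replicate could be left out. Depth limits Dsc2 most, with 502 reads in its lowest library.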
